A study of Mus musculus with 12 samples.

Results

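The genes described here encode the cytosolic sensors of double-stranded RNA, the adaptors and kinases that carry their signal, and a pair of RNA-directed effectors, in whole mouse lung exposed to a house dust mite extract. They were chosen by gene symbol and by no measured value, though earlier results of these data were known. They are Ddx58, Ifih1 and Dhx58 (the RIG-I-like receptors), Mavs and Ticam1 (adaptors), Tbk1 and Ikbke (kinases), Eif2ak2 and Adar (effectors). These are 9 genes of the 33924 listed in one set of count tables and of the 22609 listed in the other, and all 9 passed the filter on low counts in both. RNA was sequenced from lungs of mice of the B6 background aged 6 to 8 weeks, taken 14 to 16 h after the animals received phosphate-buffered saline (PBS) or an extract of the mite Dermatophagoides farinae (D.f.). One set of 6 libraries, called the RNase III set here, holds wild-type lung after PBS (n = 2), after untreated D.f. extract (n = 2) and after extract combined with RNase III (n = 2), a nuclease specific for double-stranded RNA. The other 6 form the knockout set: wild-type lung after PBS (n = 1) or the extract (n = 2), and lung of mice with both Tlr3 and Mavs knocked out after PBS (n = 1) or the extract (n = 2). No group received RNase III without extract. The labels give neither the route of exposure, nor the part of either gene that was deleted, nor whether the libraries of a group came from separate animals, so that the spread behind each p-value is that of these libraries and may be technical.

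RIG-I (Ddx58) and MDA5 (Ifih1) are helicases of the cytosol that bind double-stranded RNA and, once bound, engage the mitochondrial adaptor MAVS. LGP2 (Dhx58) is the family member without the signalling domains and modulates the other receptors. TRIF (Ticam1) is the adaptor of the endosomal receptor TLR3, which senses double-stranded RNA taken up from outside the cell. Both adaptors act through the kinases TBK1 and IKKε (Ikbke), which activate the transcription factors IRF3 and IRF7 and thereby type I interferon genes. PKR (Eif2ak2) is a kinase switched on by double-stranded RNA that halts translation by phosphorylating eIF2α, and ADAR1 (Adar) edits adenosines in double-stranded RNA and keeps the cell's own RNA from being sensed. Several of these genes are themselves targets of interferon signalling.

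In the NCBIM37 (mm9) assembly with GENCODE mouse release 1 annotation, all 9 are protein-coding genes, and every value below counts reads over a whole gene. Ddx58 lies at chr4:40150806-40186861 on the minus strand, Ifih1 at chr2:62433850-62484312 (minus) and Dhx58 at chr11:100556018-100565585 (minus). Mavs lies at chr2:131059799-131073761 (plus) and Ticam1 at chr17:56408742-56416209 (minus). Tbk1 is found at chr10:120983511-121023850 (minus) and Ikbke at chr1:133150920-133176183 (minus). Eif2ak2 occupies chr17:79251904-79281913 (minus) and Adar chr3:89518944-89557368 (plus). On the opposite strand of Eif2ak2 the annotation places Gm16825, which held 16 and 23 reads in the PBS libraries of the RNase III set, 85 and 129 with D.f. and 27 and 32 with RNase III, where Eif2ak2 itself held 761 to 9549 reads over all 12 libraries. Gm11547, opposite Dhx58, held at most 2 reads. The strand setting of the counting is not given in the sources used here, so that reads of such partners cannot be told apart.

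Promoters were read because several of these genes moved together, as described below. RefSeq promoter windows (GRCm38.p6, 250 bases before to 50 bases after the annotated start) were matched by symbol for 8 of the 9 members. No window was matched for Dhx58, so that its promoter was not searched. The interferon-stimulated response element, a motif of many interferon target genes, was searched on both strands as GAAANNGAAA. It was found in Ddx58, 2 to 11 bases downstream of the start on the reverse strand, in Ifih1, 32 to 41 bases downstream, and in Eif2ak2, 18 to 27 bases downstream. It was not found in the windows of Mavs, Ticam1, Tbk1 or Ikbke, nor in any of the 3 windows of Adar. Only exact matches were counted, so that stretches that differ in 1 letter were passed over, such as gaaagtgaac in 1 window of Adar. Over all promoters, 1131 of 32851 windows (3.44%) hold this motif. The windows of the 3 genes with a match and of Mavs, a gene that did not move with them, are shown 5′ to 3′ on each gene's own strand, with the match in capitals, at chr4:40239776-40240075 (minus) for Ddx58, chr2:62646206-62646505 (minus) for Ifih1, chr17:78882523-78882822 (minus) for Eif2ak2 and chr2:131233813-131234112 (plus) for Mavs, all in GRCm38.p6.
Ddx58: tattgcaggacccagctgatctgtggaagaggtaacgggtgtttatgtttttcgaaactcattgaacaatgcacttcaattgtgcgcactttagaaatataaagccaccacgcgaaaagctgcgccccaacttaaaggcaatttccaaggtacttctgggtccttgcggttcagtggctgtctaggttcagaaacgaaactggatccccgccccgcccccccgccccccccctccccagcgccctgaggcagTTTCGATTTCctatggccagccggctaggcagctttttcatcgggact
Ifih1: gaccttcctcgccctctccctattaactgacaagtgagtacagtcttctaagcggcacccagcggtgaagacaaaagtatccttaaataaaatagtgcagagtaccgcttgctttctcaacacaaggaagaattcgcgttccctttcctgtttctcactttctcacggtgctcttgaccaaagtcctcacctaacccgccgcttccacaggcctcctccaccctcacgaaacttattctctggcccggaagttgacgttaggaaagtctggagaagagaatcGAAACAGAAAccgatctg
Eif2ak2: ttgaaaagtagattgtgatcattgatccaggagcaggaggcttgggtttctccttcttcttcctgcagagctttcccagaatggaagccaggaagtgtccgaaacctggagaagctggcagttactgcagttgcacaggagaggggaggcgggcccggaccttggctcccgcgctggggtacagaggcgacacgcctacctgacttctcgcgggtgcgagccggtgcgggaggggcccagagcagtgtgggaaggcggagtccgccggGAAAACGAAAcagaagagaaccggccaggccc
Mavs: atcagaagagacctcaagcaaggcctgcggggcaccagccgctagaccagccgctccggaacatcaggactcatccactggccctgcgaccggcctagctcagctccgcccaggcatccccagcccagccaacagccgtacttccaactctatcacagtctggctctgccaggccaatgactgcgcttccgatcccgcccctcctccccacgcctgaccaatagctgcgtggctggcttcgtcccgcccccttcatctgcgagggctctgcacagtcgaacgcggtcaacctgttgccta
The gamma-activated site, searched as TTCNNNGAA, which reads the same on both strands, occurs in 8.30% of all windows. Among the members it was found in Eif2ak2, at -178 to -170 relative to the start, and in 1 of the 3 windows of Adar, 22 to 30 bases after the start. Neither overlaps an exact match to GAAANNGAAA.

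The RNase III set has 17754518 to 25714074 assigned reads a library, the knockout set 15687699 to 20945618. Each member other than Mavs had at least 96 reads in every library. The targeted genes were low in all 3 libraries labelled as double knockout. Mavs had 49 reads in the knockout PBS library and 50 and 47 with D.f., against 537 to 838 in the 9 wild-type libraries. Tlr3 had 167, 278 and 201 reads there, against 671 to 3170. All 12 markers of lung epithelium and endothelium had reads in every group. The share of a cell type in the lung and the RNA of a gene per cell cannot be told apart in these bulk samples.

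With D.f. extract, the transcripts of all 3 RIG-I-like receptors, the kinase gene Ikbke and both effector genes rose in wild-type lung of the RNase III set, by log2 fold changes of 1.47 for Ikbke to 3.33 for Dhx58. Mavs, Ticam1 and Tbk1 did not pass the test. Of the 9 members, 6 were called higher and none lower (edgeR's quasi-likelihood test, Benjamini-Hochberg adjusted p below 0.05 over 17165 genes), where 6.51% of all genes tested were called higher. The members' median log2 fold change was 1.84, and that of all genes tested -0.01.

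Ddx58 stood at 118 and 80.1 CPM in the PBS libraries and at 416 and 524 CPM with D.f., a log2 fold change of 2.24 ± 0.22 (SE, adjusted p = 0.00126). Ifih1 stood at 73.8 and 60.0 CPM with PBS and at 345 and 438 CPM with D.f. (2.55 ± 0.17, adjusted p = 0.000402). Dhx58 rose from 15.8 and 8.55 CPM to 97.8 and 145 CPM (3.33 ± 0.32, adjusted p = 0.00126). For each of the 3 receptors both D.f. libraries lay above both PBS libraries, with no overlap. The share of all genes that part likewise was not counted. The adaptor genes stayed within a narrow range. Mavs had 30.0 and 37.9 CPM with PBS and 28.2 and 29.7 CPM with D.f. (-0.23 ± 0.15, adjusted p = 0.378). Ticam1 had 18.2 and 24.1 CPM with PBS and 25.7 and 29.4 CPM with D.f. (0.38 ± 0.18, adjusted p = 0.230). Without PBS replicate 2, the change of Ticam1 passed the test at 0.60 ± 0.17 (adjusted p = 0.0468).

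The kinase genes differed from each other. Ikbke, which encodes the inducible kinase of the pair, rose from 26.1 and 21.9 CPM to 58.2 and 75.1 CPM (1.47 ± 0.20, adjusted p = 0.00501). Tbk1 stood at 71.5 and 62.4 CPM with PBS and at 83.0 and 108 CPM with D.f., which did not overlap, but its log2 fold change of 0.52 ± 0.16 missed the threshold (adjusted p = 0.0841). Tbk1 passed with DESeq2 (adjusted p = 0.0459), in a fit of all 12 libraries (0.0454) and without PBS replicate 1 (0.0498). The effector genes rose as the receptors did. Eif2ak2 went from 82.5 and 45.5 CPM to 294 and 416 CPM (2.47 ± 0.30, adjusted p = 0.00309), and Adar from 108 and 83.3 CPM to 285 and 398 CPM (1.84 ± 0.20, adjusted p = 0.00211). D.f. replicate 4 was the higher of its pair for all 9 members. All 6 calls were made again under each of the 10 alternatives, leaving out a library included.

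**Figure D1:**
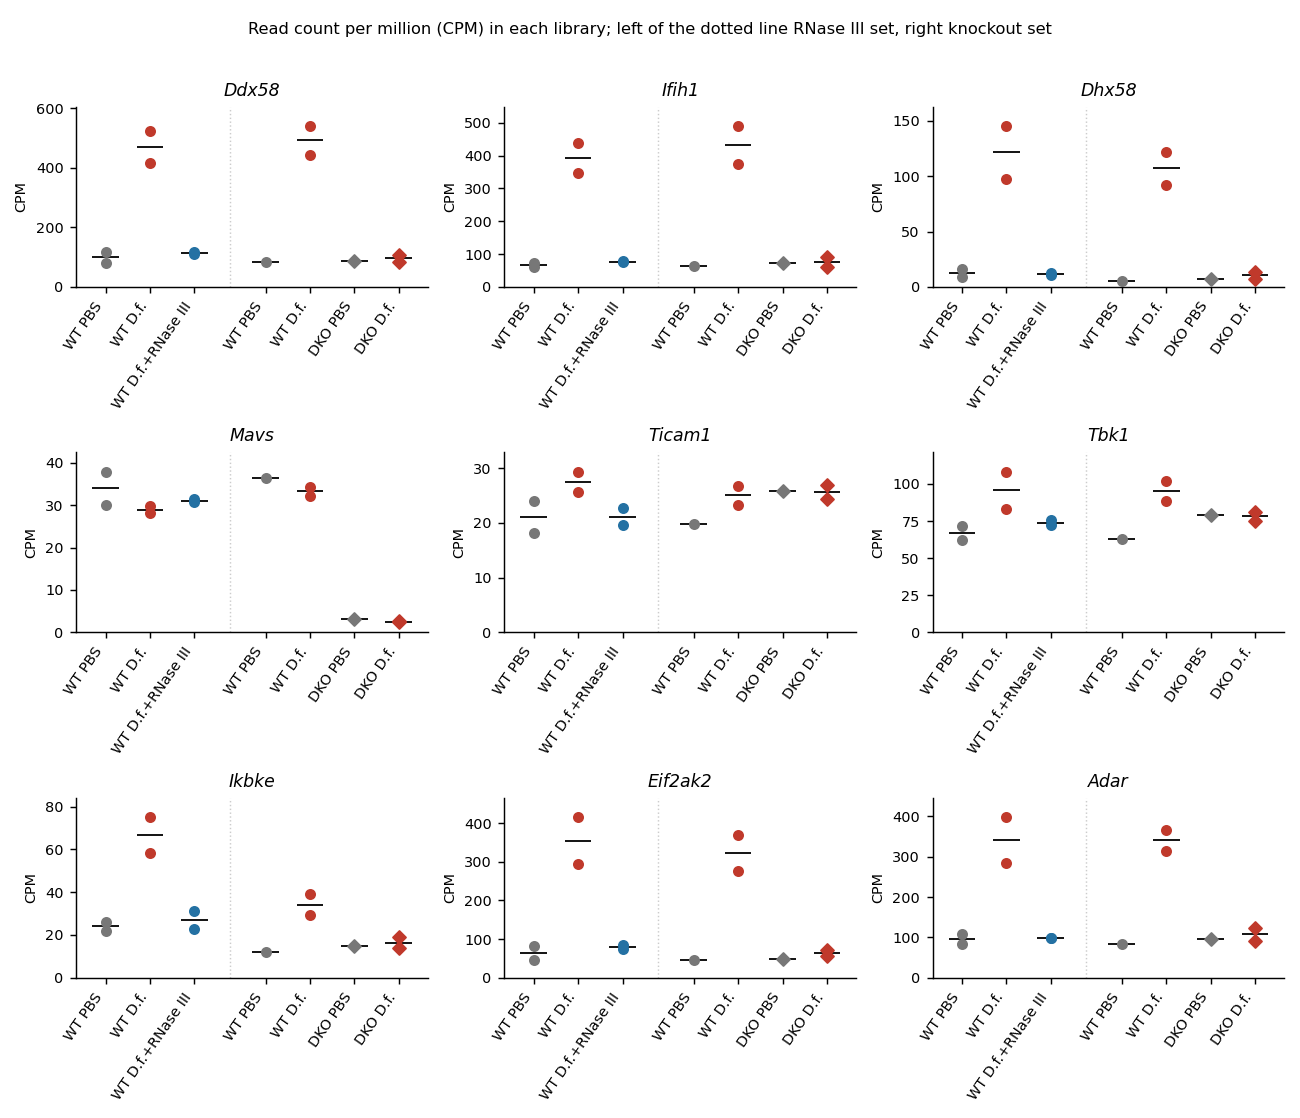
CPM (linear axis from 0) of each of the 9 genes in every library, 1 panel per gene. Circles are wild-type (WT) and diamonds double knockout (DKO) libraries, grey marks PBS, red D.f. extract and blue D.f. extract with RNase III, the bars are group means, and the dotted line parts the RNase III set from the knockout set. Ddx58, Ifih1, Dhx58, Ikbke, Eif2ak2 and Adar are higher in the wild-type libraries with untreated extract than in the other libraries of their set. Mavs is low in the 3 knockout libraries.

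Marker levels of other cell types differed between the groups of the RNase III set too. All 8 NK cell markers had reads in each group, and their sum was 23.3 to 31.4 CPM with PBS, 78.3 to 88.0 CPM with D.f. and 25.0 to 25.7 CPM with RNase III. With D.f. against PBS 5 of 8 were called higher, where 6.51% of all genes were. The 7 T cell markers found in both sets of tables summed to 32.9 to 43.8, 71.7 to 72.8 and 28.3 to 30.9 CPM in the same order, and the 6 B cell markers to 75.6 to 95.1, 97.3 to 113 and 54.5 to 60.9 CPM. With D.f. against PBS 3 of 8 T cell and 0 of 7 B cell markers were called higher. With RNase III against D.f. 7 of 8 and 4 of 7 were called lower, where 4.85% of all genes were. The 10 neutrophil markers summed to 46.7 to 175, 244 to 381 and 93.9 to 128 CPM, with 2 of the 8 tested called higher with D.f. The 6 markers of plasmacytoid dendritic cells summed to 361 to 412, 775 to 812 and 393 to 418 CPM, with 1 of the 6 called higher with D.f. The list for monocytes and macrophages went both ways. Its sum was 974 to 1019 CPM with PBS, 665 to 812 CPM with D.f. and 588 to 694 CPM with RNase III. Of its 11 markers tested, 3 were called higher with D.f. and 2 lower, where 6.51% and 4.50% of all genes were. Their median log2 fold change was 0.33.

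Few tissue markers were called. With D.f. against PBS, 1 of 12 lung and 1 of 12 cardiac markers were called lower, where 4.50% of all genes were. None of these was called higher, and none of the 9 adipose markers was called. With RNase III against D.f., 1 cardiac marker was called higher, where 2.41% of all genes were, and no other marker of these lists was called. The 12 markers of lung epithelium and endothelium summed to 31201 to 42653 CPM with PBS, 21341 to 27369 CPM with D.f. and 33815 to 34063 CPM with RNase III, so that the D.f. libraries lay below the other 4. The 12 cardiac muscle markers summed to 165 to 1327, 505 to 1025 and 199 to 222 CPM, and the 9 adipose markers to 26.5 to 156, 58.0 to 92.2 and 19.3 to 26.1 CPM. With RNase III against D.f. the median log2 fold change was -1.91 for cardiac and -3.25 for adipose markers, and for both lists the PBS libraries overlapped the D.f. libraries. No marker of these lists was at 0 in every library, and the part of these cells and tissues in the members' changes was not tested.

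When the extract came with RNase III, the same 6 genes were lower than with the extract alone, and the level of each member lay near that of PBS. Of the 9 members, 6 were called lower and none higher, where 4.85% of the 17165 genes were called lower, and the members' median log2 fold change was -1.79 against -0.00 for all genes. This comparison shares its untreated D.f. libraries with the one above. Ddx58 had 116 and 110 CPM with RNase III and was lower by a log2 fold change of -2.06 ± 0.21 (adjusted p = 0.00243). Ifih1 had 78.3 and 75.9 CPM (-2.35 ± 0.17, adjusted p = 0.000742), and Dhx58 12.4 and 10.6 CPM (-3.40 ± 0.32, adjusted p = 0.00177). Thus 24.0% of the mean D.f. level was left for Ddx58, 19.7% for Ifih1 and 9.48% for Dhx58. Ikbke had 22.9 and 31.1 CPM (-1.30 ± 0.20, adjusted p = 0.0105), Eif2ak2 84.3 and 74.4 CPM (-2.16 ± 0.30, adjusted p = 0.00664), and Adar 99.7 and 98.2 CPM (-1.79 ± 0.20, adjusted p = 0.00317). For all 6 genes both libraries with RNase III lay below both D.f. libraries without it. How many of all genes part in this way was not counted.

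Mavs had 31.3 and 30.8 CPM with RNase III (0.10 ± 0.15, adjusted p = 0.752), Ticam1 19.6 and 22.7 CPM (-0.38 ± 0.18, adjusted p = 0.267) and Tbk1 72.1 and 75.4 CPM (-0.38 ± 0.16, adjusted p = 0.214). The calls on Dhx58 and Ifih1 were made whichever library was left out. Without RNase III replicate 5 the calls on Ddx58 (adjusted p = 0.0509), Adar (0.0621), Eif2ak2 (0.0820) and Ikbke (0.128) were lost, without RNase III replicate 6 those on Adar (0.0520) and Eif2ak2 (0.0769), and without D.f. replicate 4 those on Eif2ak2 (0.0555) and Ikbke (0.0881).

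Set against PBS, no member passed the test in the libraries with RNase III. None of the 9 was called by edgeR, where 0.00583% of all genes (1 gene) were called in either direction. None had an unadjusted p below 0.05 in that test. DESeq2, which called 48 genes over the whole table, called no member. The lowest adjusted p was 0.960. Intervals bound what these libraries leave possible: the upper end of the 95% interval of the fold was 1.59 for Ddx58, 1.51 for Ifih1, 1.58 for Dhx58, 1.56 for Ikbke, 1.98 for Eif2ak2 and 1.42 for Adar. For each of these 6 genes that upper end is below the lower end of the interval for D.f. against PBS, which was 3.34, 4.42, 5.98, 2.00, 3.41 and 2.57 in the same order.

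**Figure D2:**
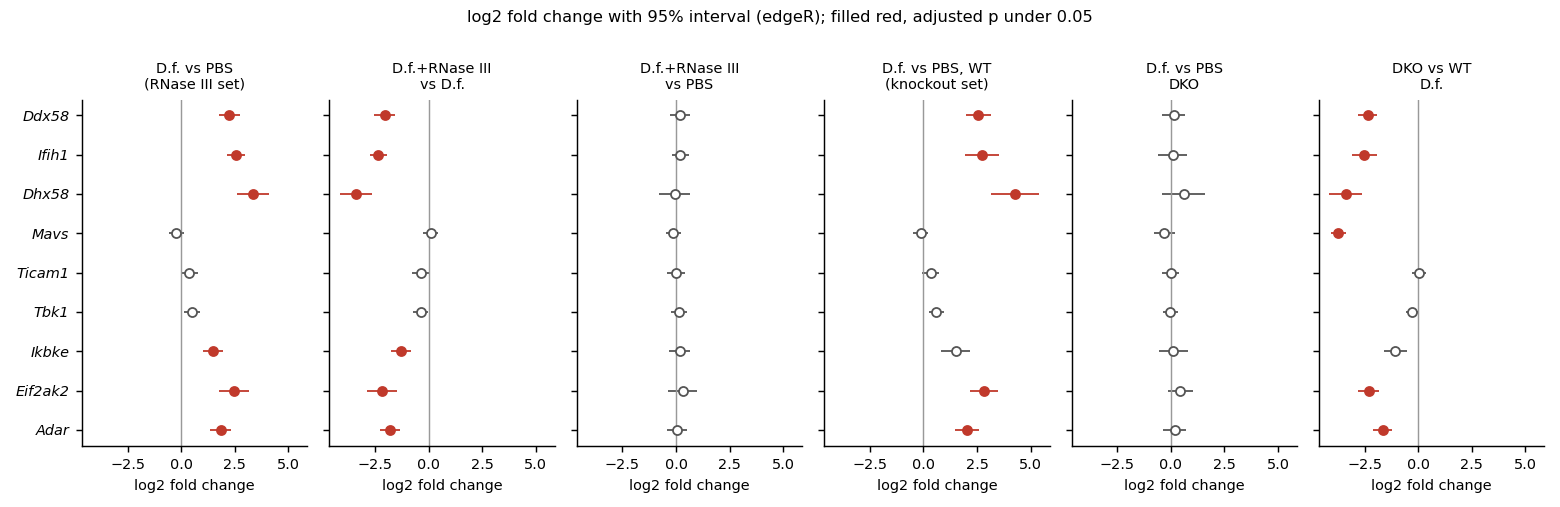
log2 fold change of the 9 genes in 6 comparisons, with 95% intervals from edgeR's quasi-likelihood fit as horizontal bars, and filled red symbols where the adjusted p was below 0.05. The 6 genes filled in the first panel lie near 0 with RNase III against PBS and in the knockout with D.f. against PBS. In the panel of knockout against wild type, Mavs lies lowest at -3.73.

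The knockout set holds its own wild-type libraries, which share none with the RNase III set. There 5 of the 9 members were called higher with D.f. (Ddx58, Ifih1, Dhx58, Eif2ak2 and Adar), where 1.38% of 15294 genes were. The members' median log2 fold change was 2.03, against 0.01 for all genes tested. Each genotype has a single PBS library in this set, which was assumed to vary like the replicated groups. Ddx58 stood at 83.1 CPM with PBS and at 540 and 444 CPM with D.f. (2.57 ± 0.23, adjusted p = 0.0260). Ifih1 went from 64.8 CPM to 490 and 374 CPM (2.74 ± 0.31, adjusted p = 0.0296) and Dhx58 from 5.47 CPM to 122 and 92.2 CPM (4.29 ± 0.45, adjusted p = 0.0294). Eif2ak2 went from 45.9 CPM to 369 and 276 CPM (2.81 ± 0.26, adjusted p = 0.0260) and Adar from 83.4 CPM to 367 and 314 CPM (2.03 ± 0.23, adjusted p = 0.0296). D.f. replicate 3 was the higher of its pair for all 9 members in this set.

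Ikbke stood at 12.1 CPM with PBS and at 38.9 and 29.5 CPM with D.f., a 2.82-fold change (95% interval 1.76 to 4.54) that missed the threshold (adjusted p = 0.0791). The call was made with no filter on low counts (adjusted p = 0.0419), with DESeq2 (0.000557) and in the fit of all 12 libraries (0.0412). Tbk1 stood at 62.8 CPM and at 102 and 88.6 CPM (0.60 ± 0.14, adjusted p = 0.119), Ticam1 at 19.9 CPM and at 26.8 and 23.2 CPM (0.33 ± 0.16, adjusted p = 0.350), and Mavs at 36.4 CPM and at 34.3 and 32.2 CPM (-0.13 ± 0.14, adjusted p = 0.692). All 5 calls rest on both D.f. libraries. Without wild-type D.f. replicate 3 or replicate 4 they were lost, as were the calls on all other genes. These fits had 1 residual degree of freedom. The fold changes then remained at 1.88 for Adar and 4.04 for Dhx58 on the log2 scale without replicate 3, and at 2.11 and 4.45 without replicate 4.

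When the 7 wild-type libraries without RNase III entered 1 fit that includes a term for the set, 7 of the 9 members were called higher, where 8.53% of 15481 genes were. Tbk1 was the seventh, at 0.53 ± 0.12 (adjusted p = 0.0249), a 1.44-fold change with a 95% interval from 1.19 to 1.75. Its call was lost without PBS replicate 2 (adjusted p = 0.0555) or D.f. replicate 4 (0.0834) of the RNase III set, or without the wild-type PBS library (0.105) or D.f. replicate 3 (0.0744) of the knockout set. The combined log2 fold changes were 2.35 ± 0.18 for Ddx58, 2.60 ± 0.16 for Ifih1, 3.64 ± 0.32 for Dhx58, 1.46 ± 0.15 for Ikbke, 2.58 ± 0.25 for Eif2ak2 and 1.89 ± 0.16 for Adar, with adjusted p of 0.000584 or less. Mavs (-0.21 ± 0.11, adjusted p = 0.232) and Ticam1 (0.34 ± 0.13, adjusted p = 0.122) did not pass.

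In mice lacking Tlr3 and Mavs, the extract left the members near their PBS level. None of the 9 was called by edgeR, none had an unadjusted p below 0.05 and DESeq2 called none, in a comparison that called 0% of 15294 genes with edgeR (847 had an unadjusted p below 0.05) and 36 genes with DESeq2. Ddx58 stood at 87.2 CPM in the knockout PBS library and at 108 and 82.8 CPM with D.f. (0.13 ± 0.21), and Ifih1 at 71.4 CPM and at 90.0 and 61.4 CPM (0.08 ± 0.27). Dhx58 stood at 6.81 CPM and at 13.3 and 7.30 CPM (0.60 ± 0.41), the largest of these changes. Without knockout D.f. replicate 6 the change of Dhx58 was called at 0.97 ± 0.22 (adjusted p = 0.0255), in a fit with 1 residual degree of freedom. For both Ddx58 and Ifih1 the PBS library lay between the D.f. libraries.

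Eif2ak2 had 48.0 CPM with PBS and 72.6 and 57.6 CPM with D.f. in the knockout (0.44 ± 0.23), Adar 95.5 CPM and 124 and 91.7 CPM (0.18 ± 0.21), Ikbke 15.1 CPM and 13.9 and 18.9 CPM (0.12 ± 0.26). Tbk1 had 79.0 CPM and 75.0 and 81.2 CPM (-0.02 ± 0.13), and Ticam1 25.9 CPM and 24.4 and 26.9 CPM (-0.01 ± 0.15). Only Eif2ak2 and Dhx58 had both D.f. libraries above the PBS library. The adjusted p of the members ran from 0.819 to 0.989. The upper end of the 95% interval of the fold was 3.07 for Dhx58, 2.03 for Eif2ak2, 1.57 for Ddx58, 1.70 for Ifih1, 1.72 for Ikbke and 1.63 for Adar.

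With D.f. in both genotypes, 6 members were called lower in the knockout and none higher, where 2.01% of 15294 genes were called lower. One of the 6 is Mavs, the gene deleted in these mice, whose log2 fold change of -3.73 ± 0.14 (adjusted p = 0.00413) checks the labels and is no response. The median log2 fold change of the members was -2.31, against 0.01 for all genes. Ddx58 was lower by -2.37 ± 0.18 (adjusted p = 0.00988), Ifih1 by -2.51 ± 0.23 (0.0147), Dhx58 by -3.38 ± 0.31 (0.0144), Eif2ak2 by -2.31 ± 0.19 (0.0117) and Adar by -1.66 ± 0.17 (0.0192), all as log2 fold changes. The knockout libraries thus held 19.4% of the wild-type D.f. level of Ddx58, 17.5% for Ifih1, 9.63% for Dhx58, 20.2% for Eif2ak2 and 31.7% for Adar. Ikbke, at 47.9%, missed the threshold (-1.06 ± 0.21, adjusted p = 0.0751) and passed it with no filter (0.0426), with DESeq2 (0.00316) and in the fit of all 12 libraries (0.0470). Tbk1 was at 81.8% (-0.29 ± 0.11, adjusted p = 0.248). Ticam1, the adaptor that both genotypes keep, was at 102% (0.03 ± 0.12, adjusted p = 0.922), within a 95% interval of the fold from 0.826 to 1.27. Without wild-type D.f. replicate 3 all 6 calls were lost, and without replicate 4 all but that on Mavs. Most calls on other genes were lost too, in fits with 1 residual degree of freedom.

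The difference between the genotypes' responses, as an interaction term, was not called for any member by edgeR. The log2 differences were -2.44 ± 0.30 for Ddx58, -2.65 ± 0.39 for Ifih1, -3.70 ± 0.58 for Dhx58, -2.37 ± 0.33 for Eif2ak2, -1.85 ± 0.30 for Adar, -1.38 ± 0.37 for Ikbke and -0.62 ± 0.19 for Tbk1, with adjusted p of 0.149 to 0.377. These 7 had an unadjusted p below 0.05, in a test that called 0.00654% of 15294 genes (1 gene) and rests on 1 PBS library per genotype. DESeq2, which called 213 genes over the whole table, called 5 of them: Ddx58, Ifih1, Dhx58, Eif2ak2 and Adar, at adjusted p of 1.19e-05 or less. Without knockout D.f. replicate 5 the log2 difference was -4.20 for Dhx58 and -2.09 for Adar. Without replicate 6 it was -3.30 and -1.62, in fits with 1 residual degree of freedom. The difference was -0.35 ± 0.22 for Ticam1 (adjusted p = 0.729) and -0.18 ± 0.24 for Mavs (0.908).

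Between the PBS libraries of the genotypes, 1 library each and without a test, the members other than Mavs stood at 104% to 130% of the wild-type level in the knockout. Ddx58 was at 105%, Ifih1 at 110%, Dhx58 at 125%, Tbk1 at 126%, Ticam1 at 130% and Mavs at 8.49%. Within groups with 2 libraries the higher library exceeded the lower by a median over the members of 1.05-fold to 1.31-fold, and at most by 1.84-fold. The differences other than that of Mavs are within this range.

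Marker levels in the knockout set are given in the order wild-type PBS, wild-type D.f., knockout PBS and knockout D.f. The 8 NK cell markers, 7 of which had reads in the wild-type PBS library, summed to 12.2, 37.8 to 41.7, 46.9 and 11.0 to 26.9 CPM. The 7 T cell markers summed to 20.4, 45.1 to 46.5, 32.0 and 19.7 to 21.7 CPM, the 6 B cell markers to 49.4, 48.4 to 58.1, 89.9 and 29.0 to 59.8 CPM, and the 10 neutrophil markers to 34.9, 81.1 to 140, 127 and 94.8 to 294 CPM. Markers of plasmacytoid dendritic cells summed to 433, 700 to 752, 479 and 457 to 471 CPM, higher in the wild-type D.f. libraries than in the other 4. The 11 markers of monocytes and macrophages summed to 554, 628 to 667, 684 and 758 to 823 CPM. Markers of lung epithelium and endothelium summed to 14477, 15440 to 16406, 15943 and 13539 to 17740 CPM. Cardiac muscle markers summed to 786, 425 to 639, 129 and 111 to 170 CPM, lower in the knockout, and adipose markers to 54.1, 24.2 to 28.7, 30.8 and 30.4 to 39.4 CPM. With D.f. against PBS in wild-type lung, 3 of the 5 plasmacytoid dendritic cell markers tested were called higher, where 1.38% of all genes were. So were 3 of the 11 monocyte and macrophage markers, and no marker of the other lists named here was called. In the knockout against wild type with D.f., 3 of the 5 plasmacytoid dendritic cell markers were called lower, where 2.01% of all genes were. Also called lower there were 2 of 11 cardiac, 2 of 11 monocyte and macrophage, 1 of 7 T cell and 1 of 12 lung markers. Another 3 of the 11 monocyte and macrophage markers were called higher, where 0.517% of all genes were. The part of these cells and tissues in the members' differences was not tested.

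Per kilobase of exon, the members' order changed with the extract. In the PBS libraries of the RNase III set Tbk1 had the highest level, 22.1 ± 2.14 CPM per kb (SD, n = 2), above Adar (14.1 ± 2.60), Ddx58 (14.1 ± 3.82), Eif2ak2 (12.5 ± 5.12) and Ifih1 (12.1 ± 1.78), whose libraries overlapped each other. Mavs (10.1 ± 1.68) and Ticam1 (7.07 ± 1.38) followed, and Dhx58 (3.52 ± 1.47) and Ikbke (2.67 ± 0.329) were lowest and overlapped. With D.f. the receptors and PKR led, at 71.0 ± 11.9 CPM per kb for Ifih1, 69.5 ± 16.8 for Eif2ak2 and 66.6 ± 10.9 for Ddx58, which overlapped. Adar stood at 50.4 ± 11.8, Dhx58 at 35.2 ± 9.75 and Tbk1 at 31.6 ± 5.91, and the libraries of Dhx58 overlapped both those of Adar and those of Tbk1. Tbk1 was thus below Ifih1, Eif2ak2, Ddx58 and Adar, and Ikbke stayed last at 7.39 ± 1.33. Ikbke has the longest exon length of the 9 (9018 bases). Its mean with D.f. before division by length, 66.6 CPM, was above Mavs (29.0) and Ticam1 (27.6). The annotation used for counting is not given, so that the lengths counted may differ from those used here. With RNase III, Tbk1 was first again at 24.3 ± 0.789 CPM per kb and Ikbke last at 2.99 ± 0.645.

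**Figure D3:**
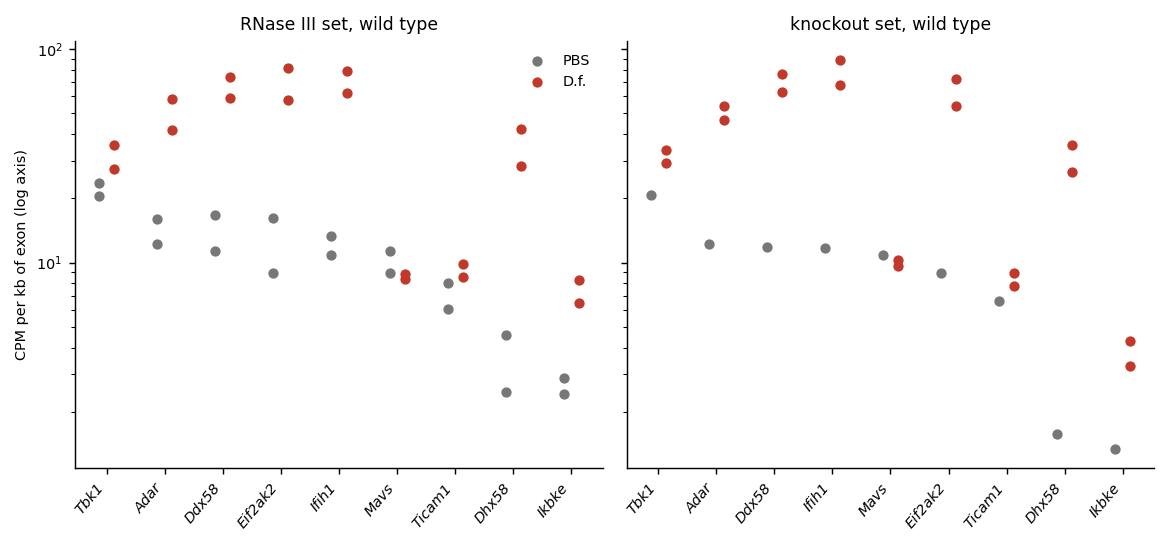
Level per kilobase of exon (CPM per kb, logarithmic axis) of the 9 genes in wild-type libraries with PBS (grey) and D.f. extract (red), in order of their PBS level within each set, 1 point per library. Tbk1 is first with PBS in both sets, and Ifih1, Eif2ak2 and Ddx58 are the highest with D.f.

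The knockout set showed a like order. Tbk1 led in the wild-type PBS library (20.7 CPM per kb), in the knockout PBS library and in the knockout with D.f. (25.8 ± 1.46). In wild-type lung with D.f., Ifih1 (78.3 ± 14.8), Ddx58 (69.8 ± 9.59) and Eif2ak2 (63.1 ± 12.8) led and Tbk1 stood at 31.5 ± 3.16, overlapping Dhx58. In the knockout Mavs was last, at 0.924 CPM per kb with PBS and 0.749 ± 0.0655 with D.f.

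Ratios of members within a library show which genes moved unequally. Ikbke stood at 0.121 ± 0.00323 of Tbk1 per length with PBS in the RNase III set (SD, n = 2), at 0.234 ± 0.00175 with D.f. and at 0.123 ± 0.0225 with RNase III, and both D.f. libraries lay above the other 4. In the knockout set the ratio was 0.0649 in the wild-type PBS library, 0.120 ± 0.0113 with D.f., 0.0642 in the knockout PBS library and 0.0702 ± 0.0113 in the knockout with D.f. The sets were counted into tables of different gene content, and Ikbke was lower in the knockout set in every matched group, so that this ratio is compared within a set only. Dhx58 relative to Ifih1 rose from 0.285 ± 0.0799 with PBS to 0.492 ± 0.0551 with D.f. in the RNase III set, and stood at 0.239 ± 0.0204 with RNase III. It was 0.135 and 0.396 ± 0.00362 for PBS and D.f. in wild-type lung of the knockout set, and 0.153 and 0.213 ± 0.0333 in the knockout. The ratio of Ifih1 to Ddx58 moved least, between 0.798 and 1.16 over the 12 libraries. With Mavs not raised, Ddx58 went from 1.44 ± 0.615 to 7.68 ± 0.968 times the level of Mavs per length with D.f. in the RNase III set, and from 1.08 to 6.54 and 7.46 in the libraries of wild-type lung of the knockout set. No test was run on these ratios.

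**Figure D4:**
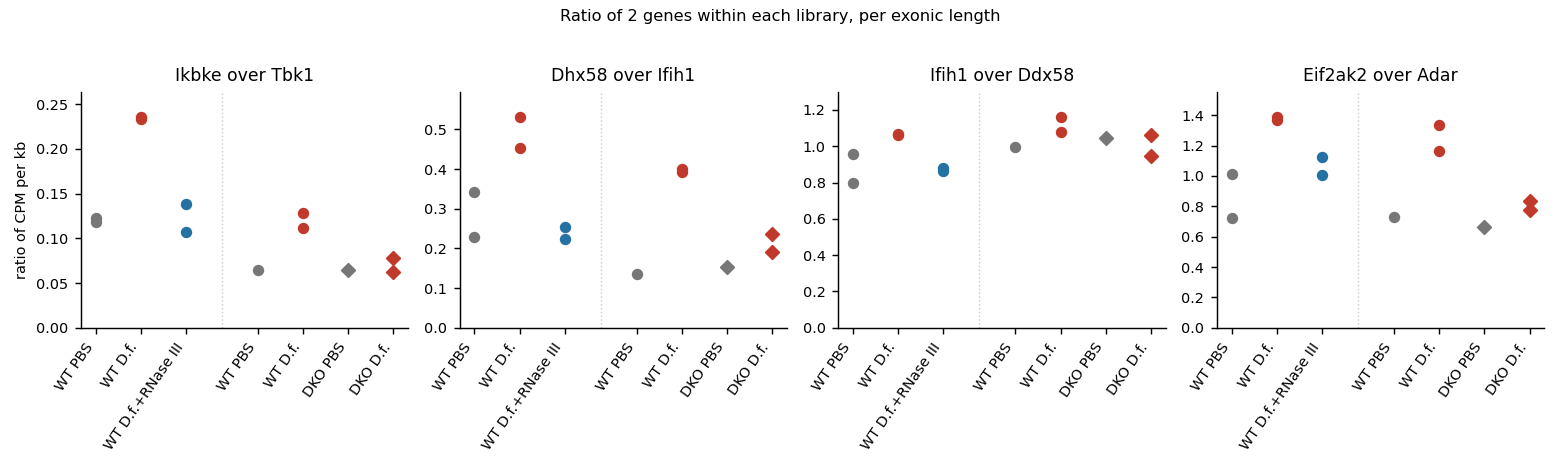
Ratio of the levels per kilobase of 2 genes within each library (linear axis from 0), 1 point per library, with groups and colours as in the plot of levels by library. Ikbke over Tbk1 and Dhx58 over Ifih1 are higher in wild-type libraries with untreated D.f. extract than in the other libraries of their set, and Ifih1 over Ddx58 spans 0.798 to 1.16.

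Among 38 other regulators and cofactors of the RIG-I-like receptors, 9 were called higher with D.f. in the RNase III set, where 6.51% of all genes were, and none lower, with a median log2 fold change of 0.16. By smallest p these were led by Nlrc5 (3.49 ± 0.31, adjusted p = 0.00109), a regulator of interferon signalling and MHC class I genes, March5 (1.07 ± 0.15, 0.00520), a mitochondrial ubiquitin ligase, Zc3hav1 (1.18 ± 0.17, 0.00581), an antiviral zinc finger protein, and Ddx60 (3.03 ± 0.43, 0.00596), a helicase linked to RIG-I. With RNase III, 7 of the 38 were called lower than with D.f. (4.85% of all genes), among them Nlrc5 (-2.90 ± 0.30, adjusted p = 0.00255), Ddx60 (-2.86 ± 0.43, 0.00973), Zc3hav1 (-1.10 ± 0.17, 0.0104) and Tmem173, which encodes the DNA-sensing adaptor STING (-1.34 ± 0.21, 0.0111). In wild-type lung of the knockout set 3 were called higher (1.38% of all genes): Trim25, a ubiquitin ligase that activates RIG-I (1.23 ± 0.13, adjusted p = 0.0296), Tnfaip3, which encodes the inhibitor A20 (1.30 ± 0.15, 0.0296), and Zc3hav1 (1.23 ± 0.16, 0.0372). In the knockout against wild type with D.f., 4 were called lower (2.01% of all genes), these 3 and Ddx60, with Trim25 at -1.17 ± 0.10 (adjusted p = 0.0136) and Ddx60 at -3.19 ± 0.44 (0.0336). In the RNase III set, Tnfaip3 was called higher with D.f. (2.96 ± 0.65, adjusted p = 0.0311), with a log2 fold change of -0.18 ± 0.60 for RNase III against D.f. (0.908) and of 2.78 ± 0.65 for RNase III against PBS (0.897).

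Of 23 adaptor partners and parts of the kinase complex, 10 were called higher with D.f. in the RNase III set (6.51% of all genes) and none lower, with a median log2 fold change of 0.44. Irf7, the interferon-induced transcription factor activated by TBK1 and IKKε, led at 4.76 ± 0.48 (adjusted p = 0.00160), followed by Tlr3 (1.49 ± 0.19, 0.00389), Casp8 (0.99 ± 0.14, 0.00603) and Azi2, a binding partner of TBK1 (1.10 ± 0.17, 0.00814). With RNase III, 7 were called lower (4.85% of all genes), Irf7 at -4.77 ± 0.48 (adjusted p = 0.00221) and Tlr3 at -1.38 ± 0.19 (0.00717) among them. In the knockout set Irf7 (5.97 ± 0.57, adjusted p = 0.0268) and Azi2 (0.96 ± 0.14, 0.0486) were called higher in wild-type lung (2 of 23, and 1.38% of all genes). In the knockout with D.f., 3 of 23 were called lower (2.01% of all genes): Irf7 was lower by -4.76 ± 0.38 (adjusted p = 0.0116), Azi2 by -0.76 ± 0.11 (0.0372) and the deleted Tlr3 by -3.44 ± 0.25 (0.00988).

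The third group, 21 genes of other eIF2α kinases, their regulators and proteins that bind double-stranded RNA, had 19 members that passed the filter. Of these, 2 were called higher with D.f. in the RNase III set and 1 lower, near the 6.51% and 4.50% of all genes called higher and lower, with a median log2 fold change of 0.02. These were Zbp1, a sensor of Z-form nucleic acids and a known interferon target (4.97 ± 0.29, adjusted p = 0.000264), Ppp1r15b, a subunit of the eIF2α phosphatase (0.54 ± 0.13, 0.0377), and Adarb1, which encodes the editing enzyme ADAR2 (-0.99 ± 0.18, 0.0136). With RNase III against D.f., Zbp1 was lower (-4.09 ± 0.27, adjusted p = 0.000613) and Adarb1 higher (0.86 ± 0.18, 0.0303), in a comparison that called 4.85% of all genes lower and 2.41% higher. In the knockout against wild type with D.f., Zbp1 alone of this group was called (2.01% of all genes were called lower), at -3.36 ± 0.55 (adjusted p = 0.0494). Adar and Adarb1, both adenosine deaminases of double-stranded RNA, thus moved in opposite directions with the extract in the RNase III set.

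**Figure D5:**
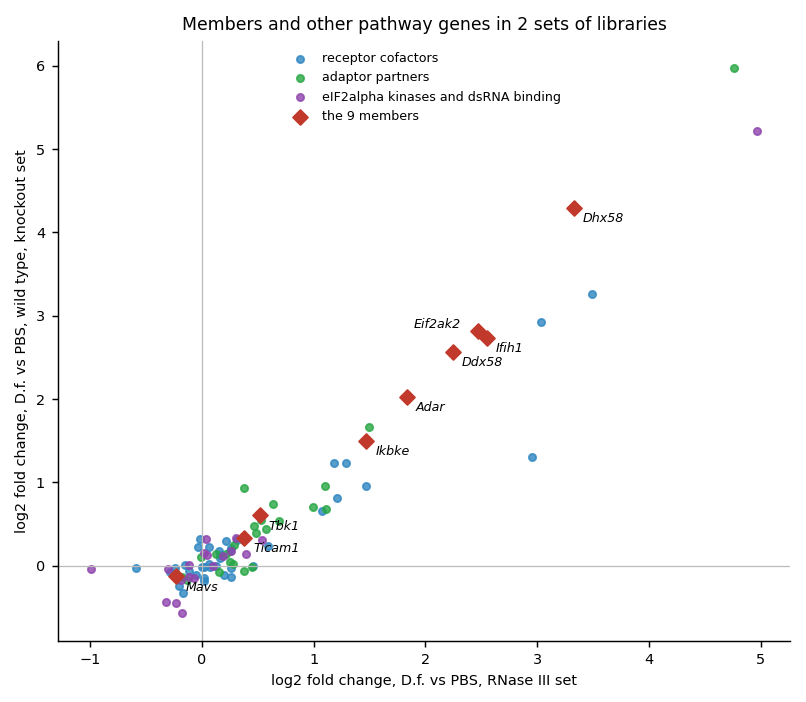
log2 fold change of D.f. against PBS in wild-type lung, in the RNase III set (x axis) and in the knockout set (y axis), which share no library. Red diamonds are the 9 members, and circles the other genes of the 3 pathway lists. Dhx58 is the highest member in both sets (3.33 and 4.29), and Mavs lies near 0 in both.

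Across the 12 libraries, with log2 CPM centred on the mean of each set, the 5 strongly induced members followed each other closely. Pearson's r between any pair of Ddx58, Ifih1, Dhx58, Eif2ak2 and Adar was 0.990 or higher, Ikbke reached 0.940 to 0.951 with them and Tbk1 0.849 to 0.880. Mavs (0.379 to 0.450) and Ticam1 (0.477 to 0.538) followed them less. These are descriptions over libraries that share the treatment groups. Of 12570 other genes, those most like Ddx58 were Samd9l (r = 0.997), Parp12 (0.997) and D14Ertd668e (0.996), and those most like Ifih1 were Parp12 (0.998), Tdrd7 (0.998) and Samd9l (0.998). Dhx58 was most like Irf7 (0.998), Oas1a (0.998) and Cmpk2 (0.996), Eif2ak2 most like Cmpk2 (0.995), Oasl2 (0.994) and Psme2 (0.994), and Adar most like Parp12 (0.998), Parp14 (0.997) and Pml (0.997). Oas1a and other genes with near-identical copies are uncertain, since the tables leave out reads that align to several places. Ikbke was most like Prkcd (0.988), N4bp1 (0.983) and Tor1aip2 (0.982), and Tbk1 most like Rufy3 (0.973), Gna13 (0.973) and Traf6 (0.971). Traf6 is a ubiquitin ligase that acts beside the adaptors. For Ticam1 the nearest were Rundc1 (0.960), Dok1 (0.944) and Jak3 (0.926), and for Mavs, whose pattern is that of its deletion, Pla2g4b (0.937), Ncam1 (0.925) and Neto2 (0.924).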

How the data were processed

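The 12 libraries were prepared from TRIzol-extracted lung RNA (Illumina TruSeq, total RNA) and read single-end, per the labels' protocols. The submitters' processing notes name bcl2fastq, TopHat2 2.0.8b, the mm9 build and HTSeq. Which annotation, strand setting and version HTSeq ran with is not given in the sources used here. Each deposited table holds raw counts per gene of 1 library, which the authors had not normalized. Lines with totals of unassigned reads took no part in the analysis. Between 23.1% and 28.2% of a table's reads were assigned to genes, no feature was found for 27.0% to 40.0%, several alignments for 36.8% to 44.6%, and 0.0552% to 0.172% were ambiguous.

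Sample titles gave groups and replicate numbers. All genes of a set were fitted together with edgeR 4.0.16 in R 4.3.3 (TMM, filterByExpr, glmQLFit, glmQLFTest), 1 mean per group. Residual degrees of freedom were 3 for the RNase III set and 2 for the knockout set. Calls had a Benjamini-Hochberg adjusted p below 0.05. Fold changes are log2 ± SE. Alternatives were RLE size factors, no filter on low counts, DESeq2 1.42.0, 1 fit of all 12 libraries, and leaving out each library. Levels per length divide CPM by the union of a gene's exons in GENCODE release 1. Likeness used log2(CPM + 0.5).

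The members, gene lists, markers and tests were chosen with earlier results of these data known. Genes named beside the members followed a rule: the 4 called genes of a pathway list with the smallest p, and the 3 named genes with the highest correlation to a member, at a mean log2 CPM of at least 1. Outside this rule are Tnfaip3 in the RNase III set, Tlr3 as a check of the labels, and the genes on the opposite strand of a member.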

Additional observations from a re-analysis of the deposited data

How the results depend on the processing

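The 9 members gave 684 results under the alternatives. Of these, 614 stayed on the same side of the threshold, 33 lost a call, 37 gained one and none reversed a called direction. Changes that were not called could change sign. For Ddx58 with D.f. against PBS in the knockout, the log2 fold change ran from -0.08 to 0.31 when leaving out a library. Under the alternatives other than leaving out a library, the members called went from 0 to 5 for the interaction with DESeq2, from 6 to 7 for the extract response of the RNase III set (DESeq2, all 12 libraries), and by the addition of Ikbke from 5 to 6 for wild-type lung of the knockout set and from 6 to 7 for knockout against wild type (no filter, DESeq2, all 12 libraries); the other member counts stayed as they were. Leaving out 1 library at a time, the members called ranged from 2 to 6 for RNase III against D.f., from 0 to 7 for D.f. against PBS in wild-type lung of the knockout set, from 0 to 1 in the knockout, from 0 to 8 for knockout against wild type and from 0 to 7 for the interaction. The genes called over the whole table ranged likewise from 584 to 3071 (D.f. against PBS, RNase III set), 146 to 2874 (RNase III against D.f.), 0 to 188 (RNase III against PBS), 0 to 3150 (D.f. against PBS, wild type, knockout set), 0 to 2092 (D.f. against PBS, knockout), 7 to 3048 (knockout against wild type), 0 to 1666 (interaction) and 1080 to 2428 (both sets). The highest counts in the knockout set came without a knockout D.f. library. The lowest for wild-type lung of this set, for knockout against wild type and for the interaction came without a wild-type D.f. library. Either leaves 1 residual degree of freedom. With DESeq2, 1905 genes were called for RNase III against D.f. (1246 with edgeR), 48 for RNase III against PBS (1), 648 for D.f. against PBS in wild-type lung of the knockout set (232), 36 in the knockout (0), 736 for knockout against wild type (387) and 213 for the interaction (1). With no filter on low counts these became 10 for RNase III against PBS, 391 for D.f. against PBS in wild-type lung of the knockout set and 16 for the interaction, and in a fit of all 12 libraries 391 for wild-type lung of the knockout set and 7 for the interaction. The cause was not tested. No paired analysis was possible because, within each set, every library carries its own replicate number. Groups of 1 or 2 libraries limit every comparison.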
